A study of Mus musculus with 3 samples.

Results

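The Janus kinases Jak1, Jak2, Jak3 and Tyk2 and the signal transducers Stat3, Stat4, Stat5a, Stat5b and Stat6 were followed across 3 bone marrow RNA-seq libraries, 1 per condition. These 9 genes were chosen by symbol, matched to the NCBI Gene identifiers of the tables, and made up 9 of the 16742 genes listed in any library. The control was a pool of lineage-negative (lin-) bone marrow cells of 3 C57BL/6 mice of wild-type genotype. Both leukemia libraries, TR1 and TR9, held GFP+ bone marrow cells of third-generation leukemia mice carrying TBLR1-RARα (TR), a fusion of the transcriptional cofactor TBLR1 with the retinoic acid receptor alpha, again on C57BL/6 and pooled from 3 mice each. All mice were 6 to 8 weeks old according to the labels. TR was delivered as a cDNA in an MSCV retroviral vector that also encodes GFP, so that the viral promoter drives it in whichever cell was infected, and the leukemias were passed by transplantation. The control cells were chosen by lineage depletion and the leukemic cells by GFP, so that genotype, sorting and transplantation cannot be told apart.

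Depth was similar, with 5488778 expected counts in the control, 5571409 in TR1 and 5129662 in TR9. Expected counts of Rara, the gene whose product is fused in TR, were 58.9 in the control, 1168 in TR1 and 359 in TR9, which goes with the labels; how many of these reads came from the fusion was not tested. By the call rule given below, 5.67% of all genes were higher in both leukemias and 8.39% lower in both, the shares to set beside the marker counts. Granulocyte markers summed to 4217 FPKM in the control, 42774 in TR1 and 32278 in TR9, and 11 of 12 were called higher in both leukemias. Erythroid markers went the other way, with a summed level of 2888, 43.2 and 43.0 FPKM and 12 of 12 listed genes called lower in both, and megakaryocyte markers summed to 954, 3.65 and 2.62 FPKM with 7 of 7 called lower. Mast cell, basophil and eosinophil markers summed to 1157, 79.4 and 90.5 FPKM with 7 of 8 listed genes called lower in both. Stroma and endothelial markers summed to 548, 54.4 and 265 FPKM with 6 of 8 called lower in both. Of the others, Lepr was called higher in TR1 and Pecam1 in TR9, where Pecam1 alone had 256 FPKM. Stem and progenitor markers summed to 201, 100.4 and 163 FPKM with 3 of 8 called lower in both. Ly6a was called higher in both, and Flt3 higher in TR1 and lower in TR9. Monocyte and macrophage markers were mixed, with 2 of 8 called higher in both and 3 lower in both. They summed to 651, 5791 and 6420 FPKM, of which Ly6c2 alone had 5593 in TR1 and 6296 in TR9. The cell makeup of the control and of the leukemias therefore differed widely, and in bulk RNA fewer cells of a type and less RNA per cell cannot be told apart.

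JAK kinases sit on the inner side of cytokine receptors that have no kinase activity of their own. When a cytokine brings receptor chains together, the bound kinases phosphorylate each other, the receptor and then STAT proteins, which pair, enter the nucleus and bind DNA at sites of the GAS type. In blood formation Jak2 serves the receptor of erythropoietin, Jak3 serves the common gamma chain of the lymphoid interleukin receptors, and Stat3 and Stat5 act behind the receptors of G-CSF, IL-3 and GM-CSF.

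Of the kinases, Jak2 was lower and Jak3 higher in both leukemias, and of the STAT factors Stat5a was lower and Stat3 higher in both. A gene was called when a conditional exact Poisson test on the rounded expected counts gave a false discovery rate (FDR) of at most 0.001 and the FPKM ratio was at least 2-fold, a test that compares libraries and not conditions. In TR1, 3 of the 9 genes were called lower and 2 higher, against 13.0% and 8.09% of all genes. In TR9, 2 were called lower and 2 higher, against 10.8% and 9.37% of all genes. Those shares include genes with counts too low to be called easily, whereas each of the 9 genes had at least 76 counts in every library. The 9 genes had a median log2 ratio of -0.43 (TR1) and -0.05 (TR9), against -0.29 and -0.12 for all genes. With both directions counted separately, 2 of 9 were lower in both leukemias (8.39% of all genes) and 2 were higher in both (5.67%). TMM scaling, which corrects for RNA composition and moved all ratios up by 0.24 in TR1 and 0.11 in TR9, left 2 of 9 genes lower and 3 higher in TR1 (9.92% and 10.3% of all genes), 1 lower and 2 higher in TR9 (9.22% and 10.5%), and 1 lower and 0 higher in TR9 against TR1 (2.83% and 3.51%). The comparisons of TR1 and TR9 with the control share that control library, so a call in both is not 2 independent observations.

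**Figure D1:**
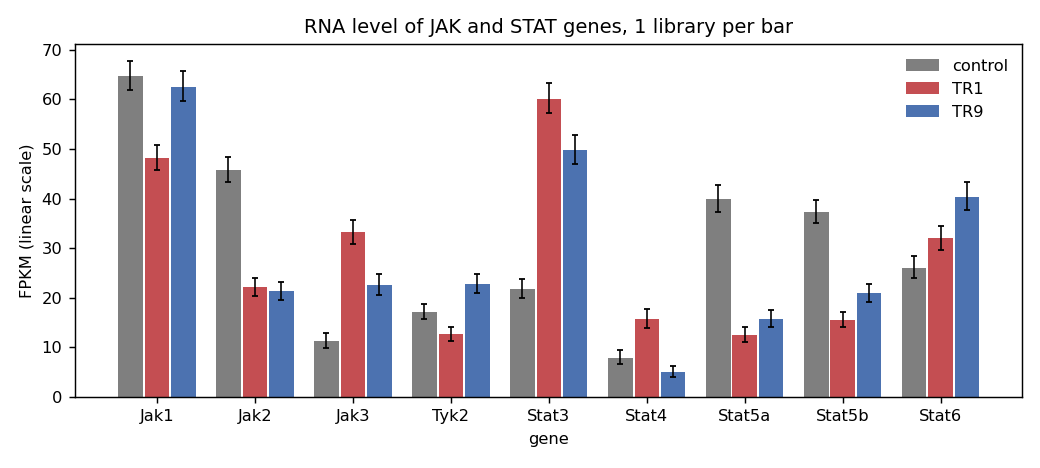
FPKM (y axis, linear from 0) of each of the 9 genes (x axis) in the control, TR1 and TR9 libraries, 1 bar per library with a 95% exact Poisson interval that covers counting error only. Stat3 sits at 21.8, 60.2 and 49.8 FPKM, whereas Stat5a sits at 40.0, 12.5 and 15.7 FPKM.

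Jak1 (Gene ID 16451; chromosome 4, 101152367 to 101265282, minus strand, in GRCm38) is the broadly used partner kinase of interferon, gamma chain and gp130 receptors. It had the highest level of the kinases in every library, at 64.8 FPKM in the control, 48.2 in TR1 and 62.6 in TR9, from 1903, 1442 and 1720 expected counts. Its log2 ratio to control was -0.43 for TR1 (95% interval -0.52 to -0.32) and -0.05 for TR9 (-0.14 to 0.05), neither of which reached 2-fold. The TR9 ratio was 0.06 after TMM scaling, so its sign depends on the scaling.

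Jak2 (16452; chromosome 19, 29251828 to 29313080, plus strand), the kinase of the erythropoietin, IL-3 and GM-CSF receptors, had 45.8 FPKM in the control, 22.1 in TR1 and 21.3 in TR9, from 1259, 621 and 549 counts. Both leukemias lay below the control and close to each other. Jak2 fell 2.08-fold in TR1 (log2 -1.05, 95% interval from -1.18 to -0.90) and by 2.15-fold in TR9 (log2 -1.10, -1.25 to -0.95). Both intervals cross the 2-fold threshold, and after TMM scaling the values were -0.81 and -0.997 and neither was called. The TR9 to TR1 ratio was -0.05 (-0.23 to 0.11), and 0.07 with TPM scaling. Erythroid, megakaryocyte, mast cell and stromal marker lists had lower sums in the same libraries, with Epor at 316, 0 and 1 counts. The part of those markers in the Jak2 level was not tested.

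Jak3 (16453; chromosome 8, 71676296 to 71690575, plus strand) is the kinase that binds the common gamma chain Il2rg. It had 11.3 FPKM in the control, the lowest of the kinases there, 33.2 in TR1 and 22.6 in TR9, from 238, 714 and 449 expected counts. Jak3 rose 2.93-fold in TR1 (log2 1.55, 1.35 to 1.78) and 2.001-fold in TR9 (log2 1.001, 0.78 to 1.25), the latter at the threshold itself. With TMM scaling the ratios were 1.79 and 1.11. T cell markers summed to 5.51, 3.09 and 7.38 FPKM in the control, TR1 and TR9, NK cell markers to 4.42, 0.63 and 0.79 FPKM, with 5 of 8 NK markers at 0 in each leukemia, and B cell markers to 12.9, 16.7 and 200 FPKM, the last with 847 counts of Igll1, a pre-B cell receptor chain. Granulocyte markers, given above, were higher in both leukemias. The part of lymphoid or granulocyte cells in the Jak3 level was not tested. Jak3 shares sequence with its neighbour Insl3, listed at 0, 0 and 2.75 counts, and the sum of both gave log2 ratios of 1.56 and 1.02.

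Tyk2 (54721; chromosome 9, 21104068 to 21131243, minus strand) is the partner kinase of type I interferon, IL-10 and IL-12 receptors. At library-total scaling it was the kinase on which the leukemias differed in direction. It had 17.2 FPKM in the control, 12.6 in TR1 and 22.8 in TR9, from 458, 342 and 570 counts, with the control between the leukemias. The log2 ratio to control was -0.45 in TR1 (-0.65 to -0.24) and 0.41 in TR9 (0.23 to 0.59), neither reaching 2-fold. With TMM scaling these ratios were -0.21 and 0.52, so whether TR1 differs from the control depends on the scaling. The direct TR9 to TR1 ratio was 0.86 (0.66 to 1.05) and 0.73 with TMM scaling, also below the 2-fold threshold.

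Because 2 genes of a single library are compared without any scaling between libraries, the mix of kinases was also read within libraries. Of the reads of Jak2 and Jak3 together, Jak3 took 15.9% in the control (95% exact binomial interval 14.1 to 17.9), 53.5% in TR1 (50.8 to 56.2) and 45.0% in TR9 (41.9 to 48.1). The intervals do not overlap, and cover counting error only. By FPKM, which is per length, the control order was Jak1 (46.6% of the summed kinase level), Jak2 (33.0%), Tyk2 (12.3%) and Jak3 (8.13%). In TR1 the order became Jak1 (41.6%), Jak3 (28.6%), Jak2 (19.0%) and Tyk2 (10.8%). In TR9 Jak1 took 48.4%, and Tyk2, Jak3 and Jak2 followed at 22.8, 22.6 and 21.3 FPKM with overlapping counting intervals, so that their order is not resolved.

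**Figure D2:**
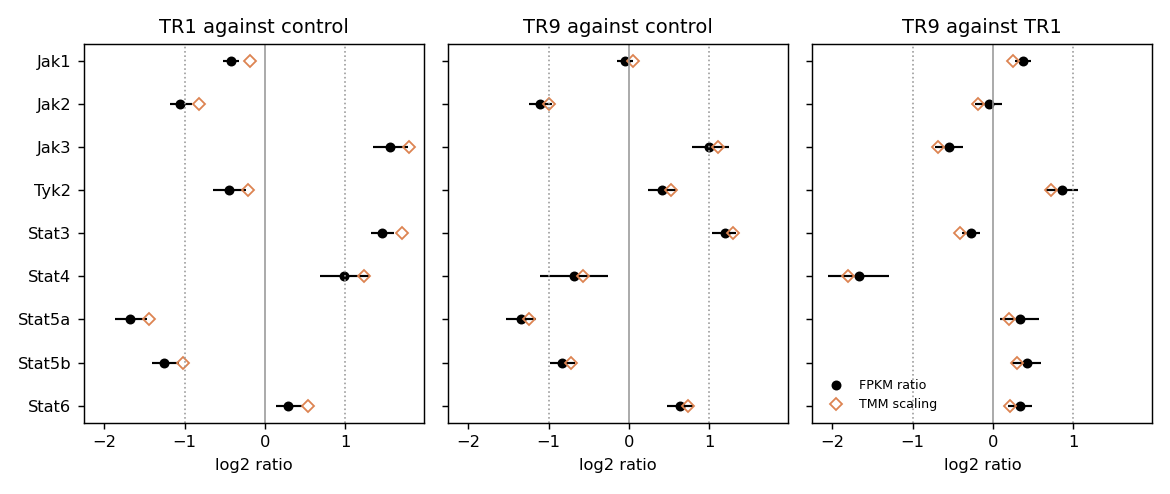
Log2 ratios of the 9 genes for TR1 against control, TR9 against control and TR9 against TR1 (x axis), as filled points with 95% exact intervals for counting error at library-total scaling, open diamonds for TMM-scaled values and dotted lines at 2-fold. Stat5a lies at -1.68 and -1.35 and Stat3 at 1.46 and 1.19 against control, whereas Stat4 lies at -1.67 in the comparison of the leukemias.

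Stat3 (20848; chromosome 11, 100885098 to 100939540, minus strand), the factor behind gp130 receptors and the G-CSF receptor, moved most clearly upward. It had 21.8 FPKM in the control, 60.2 in TR1 and 49.8 in TR9, from 541, 1512 and 1151 counts. Both leukemias were well above the control, and in TR1 Stat3 passed Jak1 as the most abundant of the 9 genes per length. Stat3 rose 2.76-fold in TR1 (log2 1.46, 1.32 to 1.61) and 2.28-fold in TR9 (log2 1.19, 1.04 to 1.34), and with TMM scaling the log2 ratios were 1.70 and 1.30. Among all listed genes it moved from the 73.7th percentile of FPKM in the control to the 91.9th in TR1 and the 89.7th in TR9.

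Stat5a (20850) and Stat5b (20851), the nearly identical factors that act behind the erythropoietin, IL-3 and growth hormone receptors, were both lower. Stat5a had 40.0 FPKM in the control, 12.5 in TR1 and 15.7 in TR9, from 862.11, 274.63 and 317.88 expected counts. Stat5a fell 3.20-fold in TR1 (log2 -1.68, -1.87 to -1.47) and 2.54-fold in TR9 (log2 -1.35, -1.53 to -1.15). Stat5b had 37.3, 15.6 and 20.9 FPKM, from 1022.89, 441.37 and 539.12 counts. It fell 2.40-fold in TR1 (log2 -1.26, -1.40 to -1.07), and its ratio of -0.83 in TR9 (-0.98 to -0.67) was not called. With TMM scaling the Stat5a ratios were -1.44 and -1.24 and the Stat5b ratios -1.02 and -0.73. The Stat5 levels, like Jak2, were low in both leukemias, where the erythroid, megakaryocyte, mast cell and stromal marker lists had lower sums. The part of those markers was not tested.

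The 2 Stat5 genes cannot be read apart completely, since the authors' RSEM counts divide a read that fits both. Their counts were fractional in each library, but summed to 1885 in the control, 716 in TR1 and 857 in TR9, whole numbers in all 3. The sum fell in both leukemias, with log2 ratios of -1.42 (-1.54 to -1.29) and -1.04 (-1.16 to -0.92). Stat5a and Stat5b shared 608 words of 50 bases, which were 15.3% of the words in Stat5a transcripts and 11.1% of those in Stat5b. In the Stat5b transcript all 1098 shared bases lay in the coding part, in 10 blocks, and the untranslated parts held none. The longest stretch without a difference was 324 bases, coding bases 571 to 894 of both genes, and its last 240 bases are shown because no read that falls wholly within the stretch can tell the genes apart. In Stat5a it runs over exon parts on chromosome 11 at 100874023 to 100874133, 100874339 to 100874490 and 100874923 to 100874983 (GRCm38, plus strand), and in Stat5b over 100797741 to 100797801, 100798234 to 100798385 and 100798591 to 100798701 (minus strand). The next 60 bases of each coding sequence follow, with a capital at the 1 base that differs.
Shared stretch, last 240 bases: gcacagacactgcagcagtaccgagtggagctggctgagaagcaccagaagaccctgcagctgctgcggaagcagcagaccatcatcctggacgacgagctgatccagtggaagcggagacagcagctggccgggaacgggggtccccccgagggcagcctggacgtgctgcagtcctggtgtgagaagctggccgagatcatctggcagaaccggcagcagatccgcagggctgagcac
Stat5a, next 60 bases: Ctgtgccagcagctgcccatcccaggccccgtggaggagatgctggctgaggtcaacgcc
Stat5b, next 60 bases: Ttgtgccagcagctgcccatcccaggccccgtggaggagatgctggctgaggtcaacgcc

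**Figure D3:**
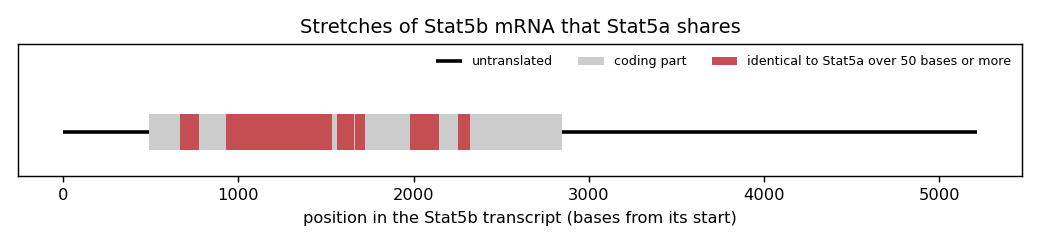
Stat5b transcript of 5213 bases (x axis, bases from its start), with the coding part in grey and, as red blocks, the stretches whose 50-base words also occur in Stat5a. The 10 blocks, some nearly touching, cover 1098 of 2358 coding bases and no untranslated base.

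Stat5b (100780731 to 100850724, minus strand), Stat5a (100859351 to 100885169, plus strand) and Stat3 lie side by side on chromosome 11 within 158810 bases. Stat5b and Stat5a are 8626 bases apart, and the gene models of Stat5a and Stat3 overlap by 72 bases at their ends on opposite strands. Of these neighbours Stat5a fell and Stat3 rose in both leukemias. The strand setting of the libraries is not given in the sources used here, so reads in the overlap cannot be assigned by strand.

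Stat4 (20849; chromosome 1, 51987148 to 52107189, plus strand), the factor behind the IL-12 receptor, separated the leukemias. It had 7.91 FPKM in the control, 15.7 in TR1 and 4.94 in TR9, from 130, 263 and 76 counts. TR1 lay above and TR9 below the control. The log2 ratio to control was 0.99 in TR1 (0.69 to 1.31), just below the threshold, and 1.23 with TMM scaling, where it was called. In TR9 the ratio was -0.68 (-1.10 to -0.26) and not called. Set directly against each other, Stat4 was 3.18-fold lower in TR9 than in TR1 (log2 -1.67, -2.06 to -1.30; TMM -1.80). This was 1 of 9 genes called lower in TR9 than in TR1, against 2.31% of all genes, and 0 of 9 were called higher, against 4.34%. Stat4 transcripts shared 840 of 3099 words of 50 bases (27.1%) with the gene model Gm28177. How many Stat4 reads fit both was not tested.

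Stat6 (20852; chromosome 10, 127642986 to 127660957, plus strand), the factor behind the IL-4 and IL-13 receptors, had 26.1 FPKM in the control, 32.0 in TR1 and 40.4 in TR9, from 548, 684 and 795 counts. The log2 ratios of 0.29 (0.13 to 0.46) and 0.63 (0.48 to 0.79) stayed below 2-fold, with TMM values of 0.53 and 0.74.

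Within libraries the balance of Stat3 and Stat5 was inverted. Of the reads of Stat3, Stat5a and Stat5b together, Stat3 took 22.3% in the control (95% exact binomial interval 20.7 to 24.0), 67.9% in TR1 (65.9 to 69.8) and 57.3% in TR9 (55.1 to 59.5). The summed level of the 5 STAT genes hardly moved, at 133, 136 and 132 FPKM, while Stat3 went from 16.4% of it in the control to 44.3% in TR1 and 37.8% in TR9. Stat5a and Stat5b together had 77.3 FPKM in the control, 28.0 in TR1 and 36.7 in TR9.

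**Figure D4:**
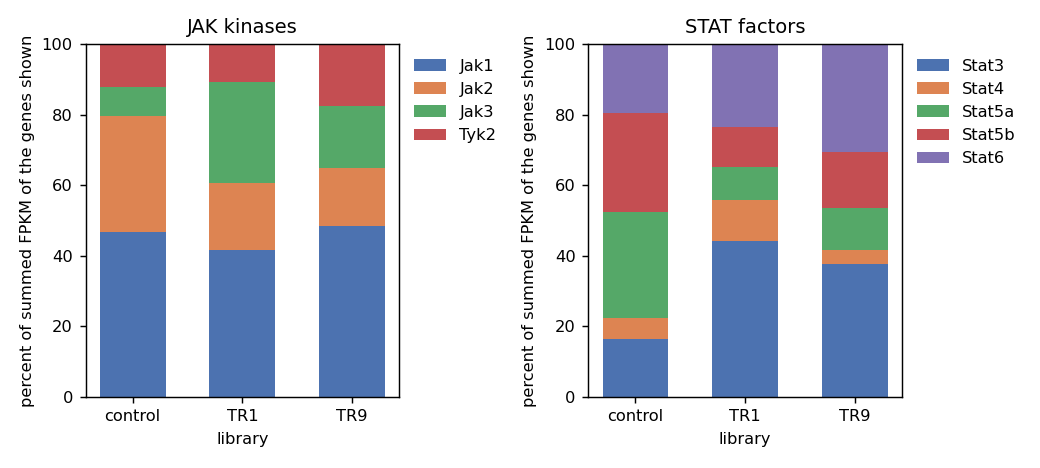
Share of the summed FPKM (y axis, percent) taken by each kinase and by each STAT gene in the control, TR1 and TR9 libraries, 1 stacked bar per library. Stat5a (30.1%) and Stat5b (28.0%), whose counting intervals overlap, take the leading STAT shares in the control, and Stat3 takes the largest in TR1 (44.3%) and TR9 (37.8%).

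When both TR libraries formed 1 arm against the control in edgeR's quasi-likelihood test, which supplies the only spread between libraries, 0 of 9 genes passed an FDR of 0.05, against 1.24% of the 12498 genes tested that were lower and 0.744% that were higher. At an unadjusted p under 0.05 there were 3 lower and 2 higher, against 12.3% and 11.9% of genes. This fit has 1 residual degree of freedom and assumes that the control varies like the leukemias. The log2 changes were -1.33 ± 0.23 (SE) for Stat5a (adjusted p = 0.0872), 1.51 ± 0.31 for Stat3 (adjusted p = 0.107), -0.89 ± 0.22 for Jak2 (adjusted p = 0.133), 1.503 ± 0.41 for Jak3 (adjusted p = 0.149) and -0.85 ± 0.24 for Stat5b (adjusted p = 0.154), each by edgeR's quasi-likelihood test with Benjamini-Hochberg adjustment and in the same direction in 2 of 2 leukemias. Stat6 gave 0.65 ± 0.23 (adjusted p = 0.218). For Stat4 (0.60 ± 0.85), Tyk2 (0.21 ± 0.39) and Jak1 (-0.05 ± 0.25) the error was larger than the change. DESeq2 on the same counts, which called 4.46% of genes lower and 6.40% higher, called 1 of 9 lower, Stat5a (adjusted p = 0.0401), and 2 of 9 higher, Stat3 (adjusted p = 0.00549) and Jak3 (adjusted p = 0.0314).

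The promoter windows of the 9 genes were read for 2 motifs, from RefSeq in GRCm38.p6, each window 250 bases before to 50 after a start. All 9 had at least 1 window and 12 windows were found. The GAS core TTCNNNGAA, on both strands, was in 0 of 12 windows and in 8.30% of all 32851 windows, and the retinoic acid receptor half-site AGGTCA, on both strands, was in 5 of 12 and in 16.3% of all. The 5 windows belonged to 4 genes, Stat4, Stat5a, Stat5b and Stat6, with Stat5a counted more than once. The Stat5a and Stat5b matches lay inside the gene models. The Stat4 and Stat6 windows held the half-site upstream of the gene model, at -69 and -169 from the start. They are shown, plus strand, for where it lies, with the half-site in capitals, as a match of letters only.
Stat4 promoter, chr1:51986898-51987105: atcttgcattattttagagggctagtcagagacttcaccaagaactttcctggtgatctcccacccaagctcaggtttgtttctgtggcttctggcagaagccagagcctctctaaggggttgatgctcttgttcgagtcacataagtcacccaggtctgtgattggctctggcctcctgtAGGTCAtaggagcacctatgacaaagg
Stat6 promoter, chr10:127642736-127642954: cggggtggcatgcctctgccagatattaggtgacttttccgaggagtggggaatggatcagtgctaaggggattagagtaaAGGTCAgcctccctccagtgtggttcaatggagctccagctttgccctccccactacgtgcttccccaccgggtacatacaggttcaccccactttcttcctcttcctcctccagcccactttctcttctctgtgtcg

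The genes around the kinases and factors were read from 10 lists covering 118 genes, of which 106 were listed. Of these, 22 were called higher in both leukemias and 11 lower in both, against 5.67% and 8.39% of all genes. Their median log2 ratio came to 0.16 for TR1 and 0.22 for TR9, against -0.29 and -0.12 for all genes. The count of each list below is to be read beside the same shares, 5.67% of all genes higher in both and 8.39% lower in both.

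Stat2, a factor of type I interferon signalling outside the 9 genes, had 325, 407 and 428 counts in the control, TR1 and TR9, and neither leukemia differed from the control by the call rule.

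Among homodimeric receptors, which use Jak2, 2 of 5 rose and 2 of 5 fell in both leukemias. Epor, the erythropoietin receptor, had 316 counts in the control against 0 in TR1 and 1 in TR9. With a floor of 3 counts per library in place of these, Epor was lower by at least 106.9-fold (TR1) and 98.4-fold (TR9). Csf3r, the G-CSF receptor, rose from 401 counts to 3745 and 1931 (log2 3.17 and 2.32), and Ghr, the growth hormone receptor, from 7 to 30 and 222. The Ghr log2 ratios were 1.55 and 4.63 by FPKM, and 2.08 and 5.08 by counts per library total. The count interval for Ghr in TR1, 0.86 to 3.51, crosses the 2-fold threshold. With a pseudocount of 1 FPKM, TPM scaling or a log2 threshold of 2, Ghr was no longer called in both and 1 of 5 rose. The receptor that Jak2 and Stat5 serve in red cells was thus near 0 in the leukemias while the G-CSF receptor was high.

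Of the common beta chain receptors 1 of 5 rose in both, Csf2ra, the GM-CSF receptor chain, at 200, 798 and 558 counts (log2 1.97 and 1.58). Of the list of gamma chain and related receptors 3 of 9 listed genes rose in both and 1 fell. Il13ra1, an IL-13 receptor chain, went from 25 counts to 437 and 136 (log2 4.10 and 2.54), and Il15ra, the IL-15 receptor chain, from 47 to 317 and 130. Il2rg, the chain that binds Jak3, rose with it, from 252 counts to 784 and 611 (log2 1.61 and 1.37). Il7r, the IL-7 receptor, fell from 35.1 to 4 and 7.06 counts.

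Of the gp130 and IL-12 family 1 of 10 rose and 2 fell in both. Il6st, which encodes gp130 and signals to Stat3, had 526, 114 and 114 counts (log2 -2.23 and -2.11), and Lifr, the LIF receptor, 55.4, 13.6 and 10.1, so both fell while Stat3 rose. Il11ra1 rose from 65.6 to 287 and 185. Of the interferon and IL-10 receptors 2 of 10 rose and 1 fell in both. Ifnlr1, the interferon lambda receptor, went from 6 counts to 345 and 326, Ifngr1, the interferon gamma receptor, from 1186 to 3359 and 5349 (log2 1.48 and 2.27), and Il10ra, the IL-10 receptor, from 63 to 1 and 5. Of the cytokine ligands 2 of 15 listed genes rose in both and 0 fell. Tslp had 6, 40 and 37 counts, and Il12a, a subunit of IL-12, had 82, 299 and 400.

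Among the inhibitors (SOCS, PIAS and phosphatases) 1 of 19 rose in both and 0 fell. This was Socs3, which blocks gp130 and G-CSF receptor signalling and is a Stat3 target, at 7, 76 and 97 counts (log2 3.43 and 3.90). Of the adaptors 1 of 10 fell in both and 0 rose. Jakmip1, which binds JAK proteins, had 35 counts in the control, 2 in TR1 and 0 in TR9.

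Among known STAT target genes 10 of 20 rose in both leukemias and 4 fell, against 5.67% and 8.39% of all genes. The list median was 0.94 in TR1 and 1.54 in TR9, against -0.29 and -0.12 for all genes. Id1, an inhibitor of helix-loop-helix factors, went from 9 counts to 138 and 111, and Gfi1, a transcriptional repressor, from 193 to 2002 and 2553 (log2 3.37 and 3.84). Fos had 42, 405 and 351 counts. The 4 that fell, named after their values were seen, were Ccnd2 and Ccnd1, which encode D-type cyclins (842, 138 and 70 counts, and 119, 23 and 18), the survival gene Bcl2 (417, 75.0 and 171) and Birc5, the survivin gene (655, 258 and 292). No separate list of Stat5 targets was drawn up. The Stat5 targets named next were picked after their values were seen, and did not move one way. Ccnd2 fell, while Pim1, a survival kinase also known as a Stat5 target, rose from 139 counts to 376 and 366 (log2 1.41 and 1.49), and Cish, a Stat5-induced inhibitor from the list above, had 11, 6 and 74 counts and rose in TR9 (log2 2.84). Gfi1 is also on the granulocyte marker list, and the part of the granulocyte markers in the list's counts was not tested.

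**Figure D5:**
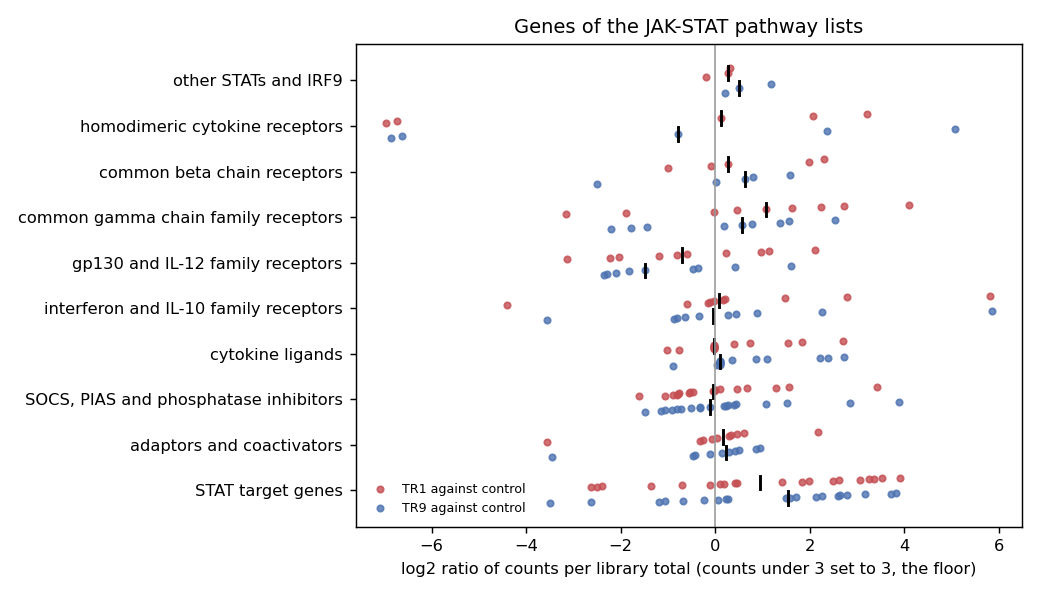
Log2 ratio of each gene of the 10 pathway lists (x axis, counts per library total with counts under 3 set to 3) for TR1 and TR9 against control, 1 point per gene and comparison with a black bar at each list's median. The STAT target genes reach log2 3.92 for Id1 in TR1, and the homodimeric receptors hold Epor far to the left.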

How the data were processed

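Total RNA of 3 libraries was sequenced on an Illumina instrument. Reads were cleaned by the authors, aligned using BWA and Bowtie, and summed per gene by RSEM; the submitters' processing notes name mm9, and tool versions and the annotation release are not given in the sources used here. The deposited tables give an expected count per gene (estimated, so not always whole) and an FPKM, scaled to gene length and library size, both made by the authors. A gene not listed was taken as 0. Of 16742 gene identifiers, 16698 matched a RefSeq symbol. The members and lists were chosen with earlier results of these data known. All 9 members were named, and of each list the 3 genes that both leukemias moved the same way, past the threshold, by the most on average, plus Stat2; some genes that this rule names are not reported here. Csf3r, Il2rg, Pim1, Cish and the STAT targets that fell were named after their values were seen.

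Expected counts were rounded, tested by a conditional exact Poisson test and adjusted by Benjamini-Hochberg over all genes. FPKM ratios used a floor of 0.01. Intervals are 95% exact and cover counting error only. edgeR 4.0.16 (glmQLFit, TMM) and DESeq2 1.42.0 in R 4.3.3 compared both TR libraries with the control. With pooled animals and 1 library per condition, Poisson p-values hold counting error only, and those of edgeR and DESeq2 the spread between these libraries. Statistics were tested on simulated data. Alternatives were other floors, a pseudocount, minimum levels, scalings, thresholds, an edgeR exact test at an assumed variation and no filter. Gene positions are GENCODE M21 (GRCm38), a different build from the authors', used only for location and sequence. Analyses ran in Python 3.11.15 with numpy 2.4.6, pandas 2.3.3, scipy 1.17.1 and matplotlib 3.10.9.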

Additional observations from a re-analysis of the deposited data

Results flagged for a closer look

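At library-total scaling Tyk2 lay below the control in TR1 and above it in TR9, with intervals that did not reach 0 in either comparison. With TMM scaling the log2 ratios were -0.21 and 0.52, so whether TR1 differs from the control depends on the scaling. The direct log2 ratio of TR9 to TR1 was 0.86, under 2-fold. Stat4 was called in the direct comparison of the leukemias, with a log2 ratio of TR9 to TR1 of -1.67. With 1 library per leukemia, differences between the leukemias and between libraries cannot be told apart.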

How the results depend on the processing

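Of 303 values of the 9 genes under the alternatives, 267 kept direction and side of the threshold, 8 newly passed it, 25 lost it and 3 changed sign. Those 3 had no call, and were Jak1 in TR9 with TMM (0.056) and median-of-ratios scaling (0.045) and Jak2 between leukemias with TPM scaling (0.066). The 267 include settings that could not move these genes. All 9 lie above the lower floor and the minimum levels, and every member past 2-fold already passed the stricter FDR. Jak3 in TR9 lost its call with a pseudocount of 1 FPKM (0.94) and TPM scaling (0.89). Jak2 lost its call with TMM scaling (-0.81 in TR1, -0.997 in TR9) and, in TR1, with median-of-ratios scaling (-0.81), whereas Stat4 in TR1 gained one (1.23 with each). An edgeR exact test at an assumed variation of 0.2 and a threshold of 2 on the log2 scale ended every member call, namely in TR1 Jak2 -1.05, Jak3 1.55, Stat3 1.46, Stat5a -1.68 and Stat5b -1.26, in TR9 Jak2 -1.10, Jak3 1.001, Stat3 1.19 and Stat5a -1.35, and between leukemias Stat4 -1.67. Over all genes the exact test called 992 lower and 657 higher in TR1, 830 and 717 in TR9, and 94 and 188 between leukemias, and the threshold of 2 called 1133 and 685, 928 and 738, and 135 and 283, with 12 pathway genes higher in both. Genes lower in both went from 1 to 2 among the gamma chain and related receptors at an FDR of 0.05. They went from 2 to 1 in the gp130 family with the pseudocount, and from 0 to 3 among the inhibitors with TPM scaling. A threshold of 0.5 called 3744 lower in TR1, 3085 lower in TR9, and 737 and 1435 between leukemias, and added Stat4 0.99 in TR1, Stat5b -0.83 and Stat6 0.63 in TR9, and Jak3 -0.55 and Tyk2 0.86 between leukemias. The sum of Stat5a and Stat5b, chosen after seeing the data, passed in TR9 for Stat5b (-1.08 by FPKM). In the quasi-likelihood fit median-of-ratios scaling gave 147 genes higher. Without a filter edgeR called 0 lower and 0 higher, with 1458 and 1316 at an unadjusted p under 0.05, and DESeq2 called 557 lower and 799 higher.

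No paired analysis was possible because each condition has 1 library. Leaving out replicates was not run for the same reason. The lowest member count, 76 for Stat4 in TR9, sets the widest interval.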
